A study of Macaca mulatta with 24 samples.

Results

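The globin chains and AHSP, the chaperone of the alpha chain, were followed in whole blood of adult rhesus macaques (Macaca mulatta) before and after total body irradiation. Members were all non-control probes whose gene name in the scanner output was AHSP or exactly a globin symbol, which gave 7 genes on 10 probes among 15043 distinct gene symbols: AHSP, HBM, HBA1, HBA2 (2 probes), HBB, HBG2 (3 probes) and HBE1. No probe carried the name HBA, HBD, HBG1, HBQ1 or HBZ. The 24 one-colour arrays held 7 pre-irradiation samples (0 Gy, 4 males and 3 females). After a total body dose of 4 Gy there were 4 arrays from day 3 (3 males and 1 female), 6 from day 5 (4 and 2) and 7 from day 7 (4 and 3). The labels do not name animals. The replicate number was taken as the animal, with the same sex at each number, which gives 7 animals, of which 3, 5 and 6 had no day 3 array and 5 had no day 5 array in these data. The labels name X-rays and day 0 for the pre-irradiation blood, whereas the study's methods name 60Co gamma rays and a draw before the day of irradiation. No unirradiated animal was followed over the same days on these arrays, so time, repeated bleeding and irradiation cannot be told apart.

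Hemoglobin is a tetramer of alpha-type and beta-type chains that each carry a heme. The alpha-type genes (HBZ, HBM, HBA, HBQ1) and the beta-type genes (HBE1, HBG, HBD, HBB) lie in separate clusters, in which HBE1 is the embryonic, HBG the fetal and HBB the adult beta-type chain. AHSP binds free alpha chains and keeps them from precipitating. Circulating red cells have no nucleus, so globin RNA in blood comes mainly from reticulocytes, the youngest red cells released from the marrow, and it disappears as they mature.

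Globin RNA was depleted from every sample before labelling, with a kit whose capture oligonucleotides are designed on human alpha and beta globin transcripts. The HBA1, HBA2 and HBB values are therefore what remained after depletion, and how much was removed from each sample was not measured here. AHSP is not a globin.

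The probe sequences are shown because they bear on which chain each value reads and which part of the transcript. The probes of AHSP, HBM and HBA1 contain the polyadenylation signal, shown in capitals within the last 30 of their 60 bases, and so read the end of the transcript.
AHSP: cactgacacctcAATAAAgaccagtgctgg
HBM: tttgtttgtgcctgtcAATAAAcagaggcc
HBA1: cccttcctggtctttgAATAAAgtctgagt
The first HBA2 probe (probe 1, the brighter) ends in the stop codon in capitals. Its annotation also lists the HBA1 transcript, so the alpha genes were not separated by it. Of HBA2 probe 2, which the annotation calls HBA2 but describes as unknown, the first 30 bases are given.
HBA2 probe 1: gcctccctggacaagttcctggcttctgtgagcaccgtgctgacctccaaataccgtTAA
HBA2 probe 2: tgacctgaagactccagactgggaccccac
The beta-type probes carry no polyadenylation signal. HBG2 probes 1 and 2 overlap by 24 bases, in capitals, and differ there by A18G, with positions counted from 1 at the 5′ end of probe 2 and the base of probe 1 given first. In the comparison of letters, no member probe shared a run of 20 bases with another probe on the array, and the longest run shared with another hemoglobin probe was 17 bases between HBG2 probes 1 and 2. Probes were not compared with the globin transcripts, so signal from the transcript of another chain was not tested.
HBB: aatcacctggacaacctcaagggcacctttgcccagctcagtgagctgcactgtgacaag
HBE1: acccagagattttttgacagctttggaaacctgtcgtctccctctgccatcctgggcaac
HBG2 probe 1: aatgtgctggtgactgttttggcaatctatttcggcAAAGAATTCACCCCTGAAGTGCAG
HBG2 probe 2: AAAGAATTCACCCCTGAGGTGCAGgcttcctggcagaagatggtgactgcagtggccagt
HBG2 probe 3: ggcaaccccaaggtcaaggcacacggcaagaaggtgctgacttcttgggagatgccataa

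The array annotation placed the beta-type probes on chromosome 14 and the alpha-type and AHSP probes on chromosome 20, in the build rheMac2 named by the file headers and not checked here. The order of the start and end coordinates puts every member probe on the plus strand. HBE1 was at chr14:68130338-68130397, HBG2 probe 3 at chr14:68152084-68152144, HBG2 probe 1 at chr14:68153117-68153176, HBG2 probe 2 at chr14:68153153-68153212 and HBB at chr14:68175117-68175176. HBM was at chr20:125043-125102, HBA2 probe 1 at chr20:137163-137222, HBA1 at chr20:137265-137321, HBA2 probe 2 at chr20:138832-138891 and AHSP at chr20:29623063-29623122.

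All levels below are log2 of the background-subtracted signal after each array had been shifted by a constant to a common reference array. Different probes were compared only by how their difference on the same array changed between days. Between 48.3 and 61.2% of the probes on an array were well above background, and the array shifts lay between -2.03 on animal 2 at day 7 and 0.87 on animal 3 at day 5. Of the 10 member probes, all 10 were among the 27138 tested, which rose well above background on 4 or more arrays. HBE1 was not well above background on 3 of the 6 day 5 arrays, and HBG2 probe 3 was not on 1 of the 7 day 7 arrays. The other 8 probes were well above background on all 24 arrays.

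Several members were near the ceiling of the scanner before irradiation. The HBB spot was saturated on 5 of the 7 pre-irradiation arrays and read 92.6 to 100.03% of the saturation value, so on these 5 arrays its level is a lower bound. HBA1 read 84.7 to 100.02% and HBA2 probe 1 read 78.5 to 100.03% of saturation, each with 1 saturated spot. HBM read 19.1 to 66.8% and AHSP 1.72 to 16.4% of the saturation value. No member spot was saturated after irradiation, although on animal 4 at day 7 HBG2 probe 1 reached 93.4%.

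**Figure D1:**
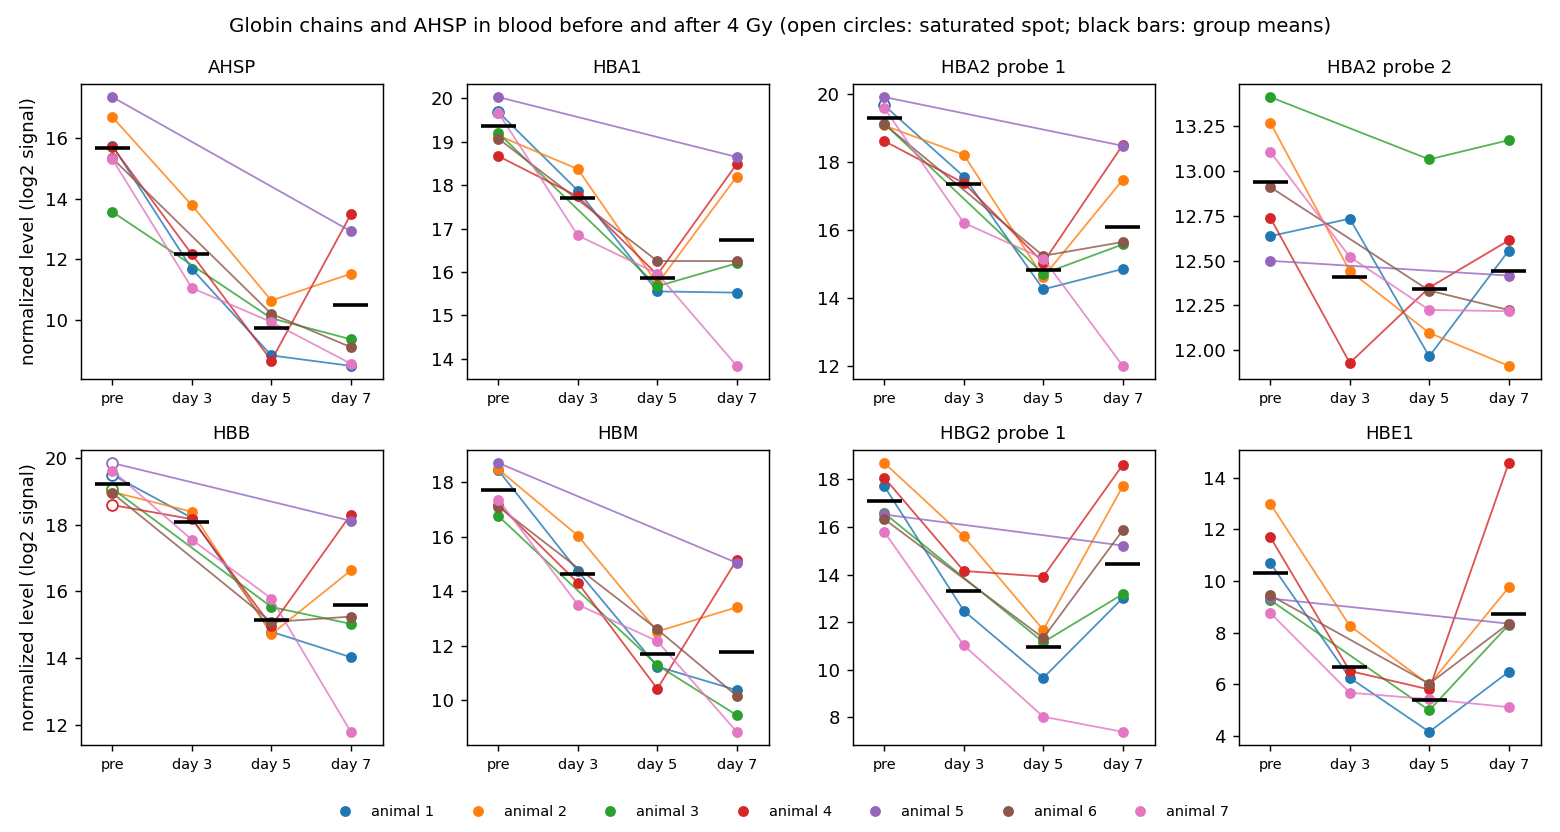
Normalized level (log2 signal, y axis with its own range in each panel) of 8 member probes on each array before irradiation and at days 3, 5 and 7, with lines joining the arrays of 1 animal, open circles for saturated spots and black bars for group means. AHSP, HBM, HBB and HBA2 probe 1 were lower at day 5 than before irradiation in all 6 animals with both arrays, animal 4 was high again at day 7, and HBA2 probe 2 stayed between 11.9 and 13.4 throughout.

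AHSP fell after irradiation. Its level before irradiation was 15.67 ± 1.20 (SD, n = 7), from 13.56 on animal 3 to 17.36 on animal 5 with a median of 15.72. At day 3 it was 11.67, 13.78, 12.16 and 11.04 on animals 1, 2, 4 and 7. Animal 2 alone lay above the lowest pre-irradiation array. At day 5 the lowest, median and highest levels were 8.64, 9.98 and 10.63, and no array overlapped the pre-irradiation group. The mean changes were -3.51 (SE 0.66) at day 3, -5.97 (SE 0.52) at day 5 and -5.19 (SE 0.83) at day 7 on the log2 scale, or 11.4-fold, 62.6-fold and 36.6-fold lower. All 3 passed the test, limma with Benjamini-Hochberg adjustment over all probes (adjusted p = 0.0022, 2.6e-06 and 0.00038). The day 3 call was lost with the scan session or the slide as a block (limma adjusted p = 0.030 and 0.065) and when animal 1, 4 or 7 was left out (0.016, 0.015 and 0.012), and with unmoderated variances (0.0081). In bulk blood, fewer young red cells and less RNA in each cell cannot be told apart.

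At day 7 the AHSP level spread widely between animals. It was 8.47, 11.51, 9.35, 13.48, 12.92, 9.09 and 8.54 on animals 1 to 7. Animals 4 and 5 stood highest, yet below every pre-irradiation array, and all 7 animals were below their own pre-irradiation level, by 2.24 to 7.29 on the log2 scale. From day 5 to day 7 AHSP was lower in 4 and higher in 2 of 6 animals, with animal 4 higher by 4.83.

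Over the 10 member probes, 7 were called lower at day 3 (6 genes), 9 at day 5 (7 genes) and 3 at day 7 (AHSP, HBM and HBB), and none was called higher on any day. Of all probes tested, 8.04% were called lower at day 3, 9.59% at day 5 and 7.27% at day 7. On 8, 9 and 5 member probes every array of day 3, day 5 and day 7 lay below every pre-irradiation array, against 12.4%, 8.6% and 5.92% of all probes tested. The median log2 change of the 10 probes was -3.29, -5.44 and -2.64, and that of all probes tested 0.015, 0.023 and 0.017.

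**Figure D2:**
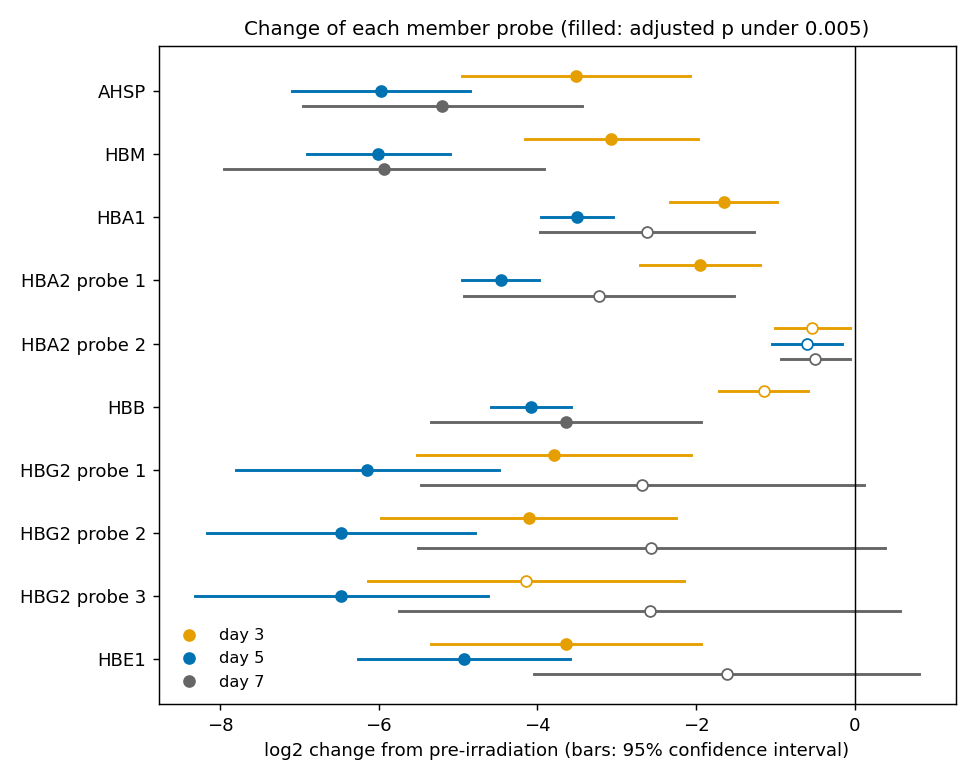
Log2 change of each of the 10 member probes from the pre-irradiation arrays (x axis) at day 3, day 5 and day 7, with 95% confidence intervals and filled points for adjusted p under 0.005. The intervals of HBG2 and HBE1 at day 7 reach past 0, and the points of HBA2 probe 2 lie within 1 log2 unit of 0 on each day.

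HBM, an alpha-type chain of the same cluster as HBA, fell on all 3 days. Its level was 17.71 ± 0.79 (SD, n = 7) before irradiation, from 16.76 through a median of 17.36 to 18.70. At day 3 it was 14.74, 16.04, 14.31 and 13.51 on animals 1, 2, 4 and 7, and at day 5 it ran from 10.42 through 11.73 to 12.60. At day 7 it ran from 8.85 through 10.37 to 15.16, with animals 4 and 5 at 15.16 and 15.04. No array of any of the 3 days reached the lowest pre-irradiation array. The changes were -3.06 (SE 0.50), -6.00 (SE 0.42) and -5.94 (SE 0.95) on the log2 scale, or 8.36-fold, 64.2-fold and 61.2-fold lower, all past the threshold (limma adjusted p = 0.0011, 3.2e-07 and 0.00039). As for AHSP, the day 3 call was lost with the scan session or the slide as a block (limma adjusted p = 0.033 and 0.044) and when animal 1, 4 or 7 was left out (0.0072, 0.0084 and 0.0059), and also in 1 fit of all groups (0.017).

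The adult alpha chain fell at days 3 and 5. The HBA1 level was 19.35 ± 0.46 (SD, n = 7) before irradiation, from 18.67 through 19.20 to 20.03. It was 17.88, 18.37, 17.74 and 16.84 on animals 1, 2, 4 and 7 at day 3 and ran from 15.55 through 15.83 to 16.25 at day 5. Day 5 was the tightest group, with an SD of 0.25. With 1 of 7 pre-irradiation spots saturated, the falls of HBA1 and HBA2 probe 1 are minimum sizes. HBA1 was at least 3.13-fold lower at day 3 and at least 11.3-fold lower at day 5 (log2 change -1.65, SE 0.31, and -3.50, SE 0.21; limma adjusted p = 0.0022 and 9.3e-08). HBA2 probe 1, in the coding sequence, was at least 3.87-fold and 22.02-fold lower on these days (limma adjusted p = 0.0017 and 2.1e-08). With the animal as a block, the day 3 calls of HBA1 and HBA2 probe 1 were lost (limma adjusted p = 0.023 and 0.020), as they were with the normexp background correction, which adds an offset of 50 (limma adjusted p = 0.072 and 0.036). Both were also lost with the scan session or the slide as a block and when animal 1, 4 or 7 was left out. At day 7 HBA1 ran from 13.84 on animal 7 to 18.65 on animal 5, all below the lowest pre-irradiation array, and the mean changes of -2.62 (HBA1) and -3.22 (HBA2 probe 1) missed the threshold (limma adjusted p = 0.0069 and 0.0082). Both passed it with the day 7 arrays of animals 4 and 5 left out, an alternative chosen after the values were seen (limma adjusted p = 0.00082 and 0.00072).

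The probe called HBA2 probe 2 did not follow the other alpha probes, and whether it reads an HBA2 transcript was not tested. Its level was 12.94 ± 0.34 before irradiation (n = 7), 12.41 ± 0.34 at day 3 (n = 4), 12.34 ± 0.38 at day 5 (n = 6) and 12.44 ± 0.40 at day 7 (n = 7; all SD). The changes of -0.53, -0.60 and -0.49 were not called (limma adjusted p = 0.076, 0.033 and 0.083). After subtraction of group means, its correlation with HBA1 over the 24 arrays was r = -0.09, whereas HBA1 and HBA2 probe 1 gave r = 0.99. The letters it shares with any other hemoglobin probe run to at most 7 bases.

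HBB, the adult beta chain, was called lower at days 5 and 7. Its level was 19.22 ± 0.44 (SD, n = 7) before irradiation, from 18.59 through 19.08 to 19.85, with the ceiling on 5 arrays. At day 3 it was 18.20, 18.38, 18.16 and 17.55 on animals 1, 2, 4 and 7, all below the pre-irradiation arrays, and the change of -1.15 (SE 0.26) just missed the threshold (limma adjusted p = 0.0054). At day 5 it ran from 14.71 through 15.02 to 15.78, and the measured log2 change from pre-irradiation was -4.08 (SE 0.24; limma adjusted p = 6.1e-08). With 5 pre-irradiation spots at the ceiling, the changes of HBB from pre-irradiation are minimum sizes of the fall, and their SE leaves out what lies above it. HBB was the only member probe called between day 5 and day 3, with a further change of -2.93 (SE 0.26; limma adjusted p = 0.0028), where 0.0184% of all probes tested were called in either direction. This call was lost with the animal as a block and when animal 1, 2, 3, 4 or 6 was left out, each of which gave 0 member probes.

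At day 7 HBB ran from 11.78 on animal 7 through 15.24 to 18.30 on animal 4. The mean change from pre-irradiation was -3.63 (SE 0.80), again a minimum size, and passed the test (limma adjusted p = 0.0038), but not with the animal as a block (adjusted p = 0.0068) or with saturated spots left out (adjusted p = 0.083), which leaves 2 pre-irradiation values. The call was also lost when animal 1, 2, 3, 6 or 7 was left out (limma adjusted p from 0.0074 to 0.020). Animals 4 and 5, at 18.30 and 18.11, were within the range of HBB at day 3. No member probe was called between day 7 and day 3, where 1.28% of all probes were called, or between day 7 and day 5, where 0.00369% were. At an unadjusted p under 0.05 these counts were 2 and 4 of the 10 member probes, where 8867 of 27107 and 5630 of 27133 probes tested were below it.

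HBG2, the fetal beta-type chain, was measured by 3 probes that varied together (r from 0.98 to 0.99 between them after subtraction of group means, over the 24 arrays). The level of HBG2 probe 1 before irradiation was 17.10 ± 1.06 (SD, n = 7), from 15.79 on animal 7 through 16.58 to 18.69 on animal 2. At day 3 it was 12.48, 15.60, 14.15 and 11.02 on animals 1, 2, 4 and 7. Animals 2 and 4 were thus the highest and animal 7 the lowest, as they were before irradiation. At day 5 the level ran from 8.02 on animal 7 through 11.24 to 13.91 on animal 4. The mean was 13.8-fold lower at day 3 and 70.5-fold lower at day 5 (log2 change -3.79, SE 0.79, and -6.14, SE 0.77; limma adjusted p = 0.0038 and 5.8e-05). Probe 2 was called on both days, and probe 3 at day 5 and just not at day 3 (limma adjusted p = 0.00503). The day 3 calls of probes 1 and 2 were lost with the scan session or the slide as a block and when animal 1, 4 or 7 was left out.

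At day 7 HBG2 was higher than at day 5 in 5 of the 6 animals with both arrays. On probe 1 the level was 13.01, 17.71, 13.18, 18.61, 15.22, 15.86 and 7.39 on animals 1 to 7, and animal 7 was the exception. Animal 4 was above its own pre-irradiation level, by 0.54 on probe 1, 1.28 on probe 2 and 2.15 on probe 3. The mean difference between day 7 and pre-irradiation was -2.67 (SE 1.31) and that between day 7 and day 5 was 3.47 (SE 1.52), and neither passed the test (limma adjusted p = 0.14 and 0.21).

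HBE1, the embryonic beta-type chain, was lower at days 3 and 5. Its level before irradiation was 10.31 ± 1.55 (SD, n = 7), from 8.76 through 9.44 to 12.99, and at day 3 it was 6.25, 8.26, 6.51 and 5.67 on animals 1, 2, 4 and 7. It ran from 4.15 through 5.61 to 6.02 at day 5, and every array of both days lay below every pre-irradiation array. The change at day 3 was -3.64 (SE 0.78, limma adjusted p = 0.0045). This call too was lost with the scan session or the slide as a block and when animal 1, 4 or 7 was left out. At day 5, where 3 of 6 arrays were well above background, HBE1 was also called lower (limma adjusted p = 6.2e-05) and no size is given. With the normexp correction neither day was called (limma adjusted p = 0.033 and 0.028), with a day 3 change of -2.07.

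At day 7 the HBE1 level was 6.48, 9.75, 8.30, 14.57, 8.34, 8.35 and 5.11 on animals 1 to 7. Animal 4 lay above every pre-irradiation array, 2.87 above its own. The mean difference from pre-irradiation of -1.61 (SE 1.14) was not called (limma adjusted p = 0.31), with a 95% interval from -4.04 to 0.82.

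Differences between members on the same array do not depend on the scaling of arrays, and were compared between days by exact two-sided permutation of the arrays. Of 15 such comparisons, 5 pairs on 3 days against pre-irradiation, 11 passed at a Benjamini-Hochberg adjusted p under 0.05, of which 5 are against HBB and rest on its saturated pre-irradiation spots, and the other 6 are against HBA1, with 1 saturated pre-irradiation spot. The difference between AHSP and the alpha chain (HBA1) changed by -1.86 at day 3, -2.47 at day 5 and -2.58 at day 7 on the log2 scale (exact p = 0.021, 0.0029 and 0.0017, adjusted p = 0.032, 0.0076 and 0.0066), and at day 7 it was lower in 7 of 7 animals. The day 3 value did not pass when animal 1, 2, 4 or 7 was left out (adjusted p from 0.060 to 0.12). The difference between HBM and the alpha chain changed by -1.42, -2.50 and -3.32 (exact p = 0.0091, 0.00058 and 0.00058, the last 2 the smallest these arrays allow), with no overlap at days 5 and 7, and the day 3 value did not pass when animal 1 or 4 was left out (adjusted p = 0.067 and 0.054). The pre-irradiation HBA1 spot was saturated on animal 1 and read 84.7 to 96.6% of saturation on the other 6. A signal held down by the ceiling makes these pre-irradiation differences too high and the changes too large, so their sizes are upper limits. HBA2 probe 1 changed by -1.95, -4.46 and -3.22 at days 3, 5 and 7, where HBA1 changed by -1.65, -3.50 and -2.62. Against HBA2 probe 1 the mean changes of both differences were thus smaller. The part of unequal globin depletion between days in them was not tested. With animal 1 left out, AHSP minus HBA1 changed by -2.39 and -2.49 and HBM minus HBA1 by -2.40 and -3.22 at days 5 and 7, and all 4 passed (adjusted p from 0.011 to 0.026).

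Against HBB, the pre-irradiation differences are not measured values on the 5 arrays with a saturated HBB spot, so the levels are given as read and no call is drawn from changes against them. HBA1 minus HBB read 0.13 ± 0.05 before irradiation (SD, n = 7), where both probes were near the ceiling, -0.37 ± 0.28 at day 3 (n = 4), 0.71 ± 0.44 at day 5 (n = 6) and 1.15 ± 0.64 at day 7 (n = 7; all SD). With the mean of all tested alpha probes in place of HBA1, HBA2 probe 2 included, the change read at day 3 was -0.23 rather than -0.50. It was 1.23 rather than 0.58 at day 5 and 1.52 rather than 1.02 at day 7. At day 5 the direction against HBB depended on the alpha probe, with changes of -3.50 for HBA1, -4.46 for HBA2 probe 1 and -4.08 for HBB. At days 3 and 7 HBA2 probe 1 (-1.95 and -3.22) lay on the same side of HBB (-1.15 and -3.63) as HBA1 (-1.65 and -2.62). HBG2 (probe 1) minus HBB read -2.12 ± 1.34 on the pre-irradiation arrays, and the day 3, 5 and 7 arrays read -4.76 ± 1.68, -4.18 ± 2.24 and -1.16 ± 2.01. In the same order, HBE1 minus HBB read -8.91 ± 1.84, -11.40 ± 0.86, -9.75 ± 0.85 and -6.89 ± 1.77.

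Between day 7 and day 5 no HBB spot was saturated. HBA1 minus HBB was 0.44 higher at day 7 (exact p = 0.18, adjusted p = 0.27 over the 36 comparisons described next), and HBG2 minus HBB was 3.02 higher, in 6 of 6 animals (exact p = 0.027, adjusted p = 0.069). Neither passed. HBE1 minus HBB was 2.86 higher, in 6 of 6 animals (exact p = 0.0041, adjusted p = 0.018), but with normexp the difference was -0.25 (adjusted p = 0.82).

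Since HBA1 and HBB were near the ceiling and AHSP was not, HBM, HBG2 and HBE1 were also set against AHSP and HBE1 against HBG2, and every pair was compared between day 7 and day 5, which was decided after the values were seen and gave 36 comparisons in all. HBE1 minus AHSP was -5.36 ± 1.56 before irradiation (n = 7), -5.49 ± 0.12 at day 3 (n = 4), -4.31 ± 0.77 at day 5 (n = 6) and -1.78 ± 1.85 at day 7 (n = 7; all SD). It was 3.58 higher at day 7 than before irradiation (exact p = 0.0035, adjusted p = 0.018 over the 36), higher in 7 of 7 animals by 1.94 to 5.15, and 6 of the 7 day 7 arrays lay above all pre-irradiation arrays. With normexp the difference was 3.99 (adjusted p = 0.0052), and it was then also higher at day 5 than before irradiation, by 3.95 (adjusted p = 0.0052), where the main value of 1.05 did not pass (adjusted p = 0.26). With the day 7 arrays of animals 4 and 5 left out the day 7 difference was 3.57 (adjusted p = 0.016), and with sign flips within animals it did not pass over the 36 (adjusted p = 0.11). Against day 5 it was 2.54 higher (exact p = 0.012, adjusted p = 0.040), a difference that was 0.04 with normexp (adjusted p = 0.94). HBE1 was not well above background on 3 day 5 arrays, and the part of this in the difference was not tested. Whether the HBE1 probe also took up signal from other globin transcripts was not tested either.

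HBG2 minus AHSP went the same way in most animals without passing the test. It was 1.43 ± 1.30 before irradiation (n = 7) and 3.95 ± 2.69 at day 7 (n = 7; both SD), higher in 6 of 7 animals with animal 7 lower, and the difference of 2.52 had an exact p = 0.048 and an adjusted p = 0.11. HBM minus AHSP differed from pre-irradiation by 0.45, -0.04 and -0.74 on average at days 3, 5 and 7, none of which passed (adjusted p = 0.36, 0.92 and 0.16). At day 7 it was higher in 3 and lower in 4 of 7 animals, from -3.09 to 0.78, and 3 of the 7 arrays lay below all pre-irradiation arrays. With sign flips of the changes within animals, in which the replicate number is the block, none of the 15 comparisons passed. Such flips allow no p below 0.12 at day 3, 0.031 at day 5 and 0.016 at day 7.

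**Figure D3:**
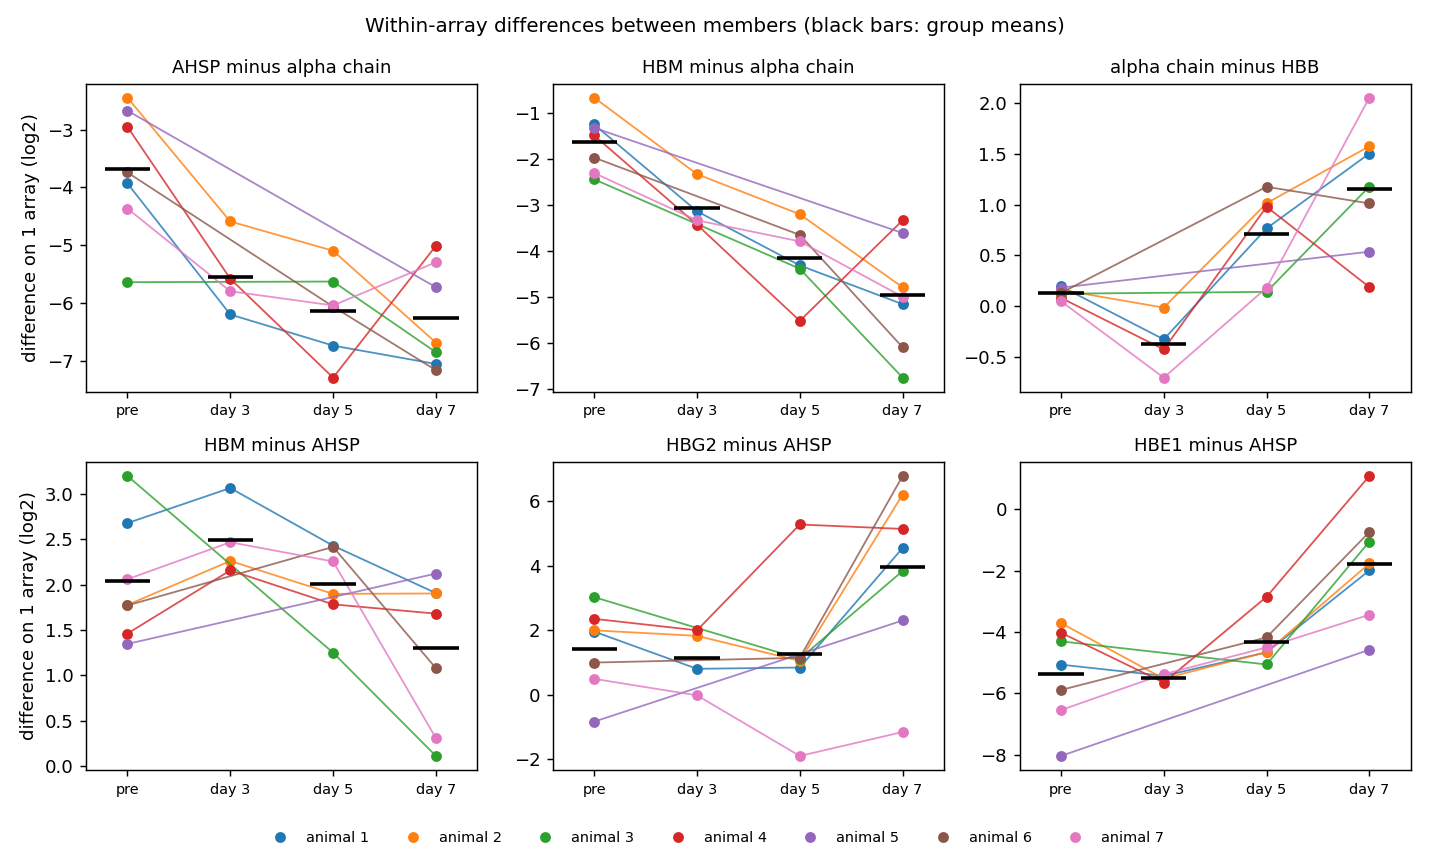
Difference between 2 members on the same array (log2, y axis with its own range in each panel) before irradiation and at days 3, 5 and 7, with lines joining the arrays of 1 animal and black bars for group means. AHSP and HBM minus the alpha chain (HBA1) read lower after irradiation, with HBA1 saturated on 1 pre-irradiation array and at 84.7 to 96.6% of saturation on the other 6, and HBE1 minus AHSP was higher at day 7 than before irradiation in all 7 animals.

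Many of the listed genes that make heme and build the red cell were called lower on the same arrays. Of the heme synthesis and mitochondrial iron import list, 13 of 16 genes were tested, and 7, 8 and 8 were called lower at days 3, 5 and 7 with none called higher. Of all genes tested, each by its brightest probe, 7.6%, 9.1% and 7.17% were called lower on these days and 5.99%, 6.24% and 2.67% higher. The list's median log2 changes were -1.31, -1.96 and -1.62, where the medians of all genes were -0.005, -0.0048 and -0.0117. ALAS2, the erythroid enzyme of the committed step of heme synthesis, was 12.4-fold, 267-fold and 31.1-fold lower. GLRX5, which serves mitochondrial iron-sulfur cluster assembly, was 20.7-fold, 51.9-fold and 21.1-fold lower. SLC25A37 read higher on these days, by 0.75, 1.15 and 0.88 on the log2 scale. It was not called (limma adjusted p = 0.14, 0.014 and 0.042).

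In the red cell membrane and skeleton list 13, 17 and 18 of 21 tested genes were called lower and none higher. RHAG and ANK1 read higher at day 3, by 2.17 and 1.08 on the log2 scale, and were not called (limma adjusted p = 0.0055 and 0.0083). EPB42, the membrane skeleton protein 4.2, was 27.5-fold lower at day 3 and was also called lower at days 5 and 7, when 4 of 6 and 5 of 7 arrays were well above background. SLC4A1, the band 3 anion exchanger, was at least 43.4-fold lower at day 5, where no array was well above background. Such a bound sets each dim array to the lowest signal well above background on it. In the list of reticulocyte enzymes and organelle clearance 12, 18 and 18 of 18 tested genes were called lower, with median changes of -2.56, -3.39 and -3.03. Among them, STRADB was 23.6-fold, 112-fold and 35.9-fold lower at days 3, 5 and 7, and TRIM58, a ubiquitin ligase of late red cell precursors, was 17.05-fold, 66.8-fold and 25.03-fold lower.

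Of the erythroid and globin-switch transcription factors, 14 of 21 were tested. At days 3, 5 and 7, 4, 5 and 6 were called lower and 1, 1 and 0 higher, with medians of -0.21, -0.31 and -1.01. KLF1, the erythroid factor that activates HBB, was 38.7-fold lower at day 3 and was also called lower at days 5 and 7, with 3 of 6 and 5 of 7 arrays well above background. SOX6, a factor that takes part in silencing fetal globin, was 11.9-fold lower at day 3, at least 43.3-fold lower at day 5, with no array well above background, and also called lower at day 7, with 2 of 7. NFIX was 21.4-fold, 50.2-fold and 25.04-fold lower. All named falls passed the test (limma adjusted p at most 0.0023, for ALAS2 at day 7).

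Of 7 tested genes of hemoglobin and heme disposal 1, 1 and 2 were called lower and 0, 0 and 1 higher at days 3, 5 and 7. BLVRB, a biliverdin reductase abundant in red cells that is also in the reticulocyte enzyme list, was 4.23-fold, 8.92-fold and 7.21-fold lower. LRP1, which takes up heme bound to hemopexin, was 3.04-fold higher at day 7. None of the 3 erythroid receptor genes was called on any day, and of the other globin-fold genes 1 of 3 was tested and was not called.

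The genes whose levels followed AHSP most closely over the 24 arrays were TFR2 (r = 0.97), TFDP2 (0.97), SOX6 (0.96), TMOD1 (0.96) and ICAM4 (0.96), members left out. After subtraction of group means they were TFDP2, TFR2, KLF1, TMOD1 and HYAL3 (r from 0.85 to 0.88). For HBA1 they were ALAS2 (r = 0.96), PAQR9, FERD3L, KLF1 and AQP1, and after subtraction ALAS2, PAQR9, SLC25A39, FERD3L and KLF1 (r from 0.87 to 0.91). For HBB they were PAQR9 (r = 0.93), ALAS2, TMOD1, RNF152 and TFR2, and after subtraction they included PAQR9, ALAS2, FERD3L and ACSL6 (r from 0.86 to 0.93). Among the members, AHSP and HBM gave r = 0.92, AHSP and HBB 0.76 and HBE1 and HBG2 probe 3 0.88 after subtraction. The arrays share animals, slides and the shifts, so these values describe these 24 arrays only.

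**Figure D4:**
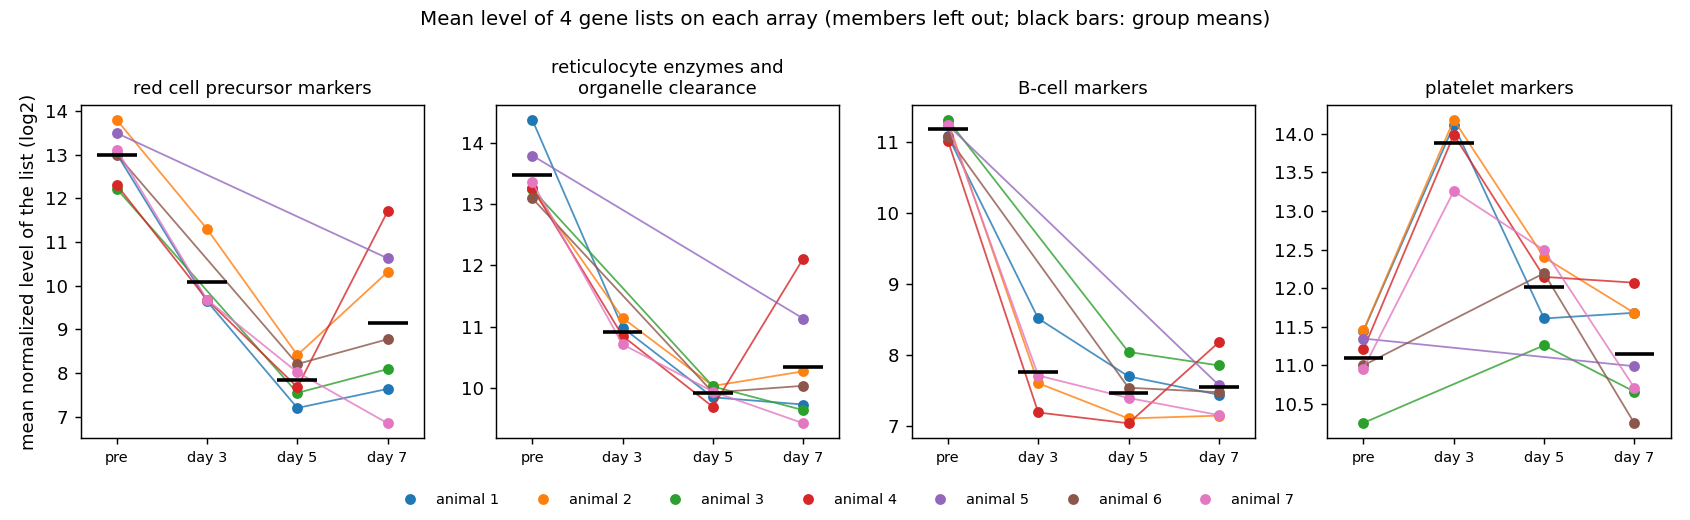
Mean normalized level (log2, y axis with its own range in each panel) of the red cell precursor markers, the reticulocyte enzymes, the B-cell markers and the platelet markers on each array, with members left out, lines joining the arrays of 1 animal and black bars for group means. At day 7 both red cell lists were above their day 5 range on animals 2, 4, 5 and 6, and the red cell lists and the B-cell markers were below every pre-irradiation array on all 7 animals.

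Other blood cell markers moved on the same arrays. The red cell precursor markers, 7 of 8 tested, had a mean level of 12.2 to 13.8 on pre-irradiation arrays. The range was 9.64 to 11.3 for day 3, 7.20 to 8.41 for day 5 and 6.85 to 11.7 for day 7. Of these markers, 5, 6 and 5 of the 7 tested were called lower at days 3, 5 and 7 and none higher. Of all genes tested, 7.6%, 9.1% and 7.17% were called lower. RHAG read 2.17 higher at day 3 on the log2 scale and was not called (limma adjusted p = 0.0055). Several markers of this list, ALAS2, KLF1, EPB42, SLC4A1 and RHAG, stand in the lists above. All 7 B-cell markers were called lower on each day, with a mean level of 11.02 to 11.31 before and 7.14 to 8.17 at day 7. All 6 tested platelet markers were called higher at day 3 (13.3 to 14.2 against 10.3 to 11.5), 1 at day 5 and 0 at day 7, where 5.99%, 6.24% and 2.67% of all genes tested were called higher. Of the tested markers, 2 of 4 for monocytes and 2 of 5 for neutrophils were called higher at days 3 and 5 and 1 of each at day 7, and no T-cell or NK-cell marker was called on any day. On animal 4 at day 7 the red cell precursor markers were at 11.7 and the B-cell markers at 8.17, and on animal 5 at 10.6 and 7.57. The part of these shifts in the members' values was not tested.

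The arrays of days 3 and 5 were scanned in the session that held 1 pre-irradiation array, that of animal 5, whereas 6 pre-irradiation and 6 day 7 arrays shared the other session and its slides. Within that session the same count of 3 member probes was called at day 7. With the session as a block, in which the day 3 and day 5 comparisons rest on that 1 array, 0 and 5 member probes were called. The count at day 3 also went to 0 when animal 1, 4 or 7 was left out.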

How the data were processed

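Whole-blood RNA was globin-depleted and hybridized to 24 one-colour Agilent arrays, whose header and labels name a rhesus design although the study's methods name a human one. The authors' scanner output holds processed signals, linear intensity values after background subtraction; the labels name Agilent Feature Extraction 10.7 and the headers 12.0.2.2. The deposited series matrix holds the authors' log2 values normalized to the median array and served as an alternative. Here log2 of the processed intensity was used, outlier spots were left out and saturated spots were kept. From each array a constant was subtracted, the median of its probe-by-probe differences from pre-irradiation replicate 2. It was taken over the 27138 of 43603 probes well above background on at least 4 arrays. Spots were averaged per probe. Symbols came from the scanner output (23054 probes) or from RefSeq accessions (886). A gene in a list stands for its brightest probe.

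Each comparison was fitted by limma 3.58.1 in R 4.3.3 and called, two-sided, where the p-value after Benjamini-Hochberg adjustment over all tested probes was under 0.005. The fits were checked on simulated data. All group comparisons against pre-irradiation share the same 7 control arrays. Replicate numbers were accepted as animals because same-numbered arrays correlated after subtraction of group means, with r from 0.13 to 0.65 in all 6 comparisons. The median r of differently numbered arrays ran from -0.093 to -0.05, and their highest r was not taken. Same-numbered pre-irradiation and day 7 arrays also shared a slide, so animal and slide cannot be told apart there. Labelled sexes match. Whether repeat draws carried separate extractions is not given in the sources used here. The number of arrays limits the precision. Within-array differences were permuted exactly with Python 3.11.15. The members and lists were chosen with earlier results of these data known. Every member is named. From a list, the 3 called genes with the largest change at a day could be named. RHAG, ANK1 and SLC25A37, which were not called, are named because they read higher. Likeness was taken as the 5 highest Pearson r. One gene that met these rules is not reported here. Alternatives covered scaling (75th percentile, quantile), background, filters, blocks, left-out replicates and variances.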

Additional observations from a re-analysis of the deposited data

Results flagged for a closer look

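Over 76 groups of 4 to 7 arrays, member probes and within-array differences together, Dixon's criterion marked 2 arrays as far from the rest of their group; chance marks about 1 in 20 groups. The HBA2 probe 2 level on animal 3 at day 5 was 13.06, the highest of 6, with the next array at 12.35. The HBE1 minus HBB difference on animal 2 at day 3 was -10.12, the highest of 4, with the next at -11.65. For the change at day 7, no member probe passed the test of the difference between the sexes (limma interaction, adjusted p from 0.80 to 0.96), and neither did any other of the 27138 probes tested.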

How the results depend on the processing

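The count of 9 member probes at day 5 was 8 to 9 under every alternative run except the scan session block (5). The day 3 count of 7 was 5 with normexp, 4 with no filter on dim probes, 1 with 1 fit of all groups, 1 with unmoderated variances, and 0 with the slide or the scan session as a block. It ran from 0 to 8 when an animal was left out. The day 7 count of 3 was 5 with 1 fit of all groups, with the series matrix values and with the day 7 arrays of animals 4 and 5 left out, and 2 to 3 when an animal was left out. The 1 call between day 5 and day 3 became 0 with no filter, normexp, 1 fit of all groups, the slide as a block, unmoderated variances and the replicate block, and 0 to 1 when an animal was left out. Between day 7 and the earlier days 0 was found under every alternative run. The replicate block gave 6, 9 and 2 member probes at days 3, 5 and 7, and 0 of the 15 within-array differences (11 without it), which ran from 7 to 12 when an animal was left out. HBE1 minus HBB at day 5 read 2.73 with normexp (adjusted p = 0.040 over 15 comparisons, 0.072 over 36) in place of -0.84. No call is drawn from it, HBB being saturated on 5 pre-irradiation arrays; the cause was not tested. Saturation limits the HBA1, HBA2 probe 1 and HBB falls, and background the HBE1 values at day 5.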

Other observations

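Outside the gene-name rule, 1 probe was matched to HBQ1 (theta chain, an alpha-type gene) by accession, and 2 overlapping probes are described as hemoglobin subunit zeta. The HBQ1 level was 14.18 ± 0.52 before irradiation (n = 7), 12.30 ± 0.49 at day 3 (n = 4), 10.58 ± 0.68 at day 5 (n = 6) and 10.72 ± 0.98 at day 7 (n = 7; all SD). It was 3.69-fold, 12.1-fold and 11.03-fold lower (limma adjusted p = 0.00098, 2.4e-06 and 2.6e-05). The level of the first zeta-described probe was 9.49 ± 1.19 before irradiation (SD, n = 7) and well above background on 2 of 4, 1 of 6 and 4 of 7 arrays at days 3, 5 and 7. On animal 4 at day 7 it was 11.67, above its own pre-irradiation level by 0.61 and above every pre-irradiation array, as HBE1 was on that array.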
